A study of Danio rerio with 8 samples.

Results

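Serpins are a family of proteins that share one fold and mostly inhibit serine proteases. An inhibitory serpin offers an exposed loop as bait, the protease cuts the loop, and the serpin then changes shape and traps the protease in a covalent complex. The liver secretes many of the serpins of blood plasma, which restrain blood clotting, the dissolution of clots, complement and the proteases of neutrophils, while other members act inside cells, at the cell surface or, without inhibiting a protease, as collagen chaperones or hormone carriers. Of 32520 genes listed in the deposited counts, 24 carried a serpin symbol from the clades A to I. SERPINC1 was set aside by the rule that chose the family, and of the other 23 genes the 22 with 10 or more counts over all fish are described here, which left out only SERPINE3. The rule used symbol and total count and not diet, but the family was chosen with earlier results of these data known.

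RNAseq was performed on whole livers of 4 female zebrafish fed the Whole Egg diet, in which whole egg product took the place of part of the protein, and of 4 females fed the Control diet of several protein sources. All fish had an age of 36 weeks and had received their diet from day 21, and each library came from 1 fish. The comparison thus asks whether long-term feeding of the Whole Egg diet altered the liver transcriptome. Per the paper, this diet also held more lipid and energy than the Control diet, and its lipid-matched control was not sequenced. Egg and lipid content therefore cannot be told apart here. The fish are named Whole Egg-1 to Whole Egg-4 and Control-1 to Control-4 after the labels, and no other diet and no male was analysed here. Between 16916307 and 35871236 reads per fish fell on genes, of which 32894 to 70728 fell on serpin genes, and vtg1, the gene of the egg yolk precursor made by the liver of laying females, took 29.9 to 44.8% of the reads of a fish.

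Levels are given as TMM-normalized CPM, read counts scaled to library size with a factor that corrects for a few genes taking most of the reads. CPM are not divided by transcript length, so that values are compared between fish for 1 gene and not between genes. The tissue label was checked with a list of hepatocyte genes, of which 14 of 17 symbols were found and all 14 were detected, with a summed level of 13881 to 42665 CPM in Whole Egg fish and 32392 to 47348 CPM in Control fish. Among the libraries Whole Egg-2 stood apart, with the lowest hepatocyte sum of the 8 fish (13881 CPM) and a summed level of 14 ovary genes of 699 CPM, against 4.62 to 83.9 CPM in the other 7 fish. Whole Egg-2 also had the largest TMM factor, 1.72, which lowers all CPM of this fish, the hepatocyte sum included. Control-2 had the highest sum of 6 intestine genes, 197 CPM against 0.408 to 10.1 CPM in the other 7 fish. Its sum of 11 exocrine pancreas genes was also the highest, at 1895 CPM against 156 to 1441 CPM in the other 7 fish. For the serpins that change most with either fish, values without it are given beside those of all 8 fish.

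Of the 22 serpins, 10 that are secreted to plasma or belong to the same clades carried 98.9% of all serpin reads. They were serpina1, serpina1l, serpina7, serpina10a, serpina10b, SERPIND1, serpinf1, serpinf2a, serpinf2b and serping1, and all 10 had enough counts to be tested. The serpin genes together took 0.206, 0.164, 0.303 and 0.245% of the reads in Whole Egg-1 to Whole Egg-4, against 0.182, 0.371, 0.182 and 0.205% in Control-1 to Control-4. The means were 0.229% ± 0.0590 (SD, n = 4) for Whole Egg fish and 0.235% ± 0.0913 (SD, n = 4) for Control fish, a difference far smaller than the spread between fish. Control-2 had the highest share of the 8 fish and Whole Egg-2 the lowest, and without these 2 fish the shares were 0.251% ± 0.0488 in 3 Whole Egg fish and 0.190% ± 0.0133 in 3 Control fish, so that the order of the means turned. Leaving out the lowest Whole Egg fish and the highest Control fish moves the means this way by itself. The order also turned with only Whole Egg-1 left out. On the CPM scale, where the summed serpin level was 2061 ± 747 CPM in Whole Egg fish and 2659 ± 537 CPM in Control fish, Whole Egg-2 had the lowest sum, at 963 CPM. Without Whole Egg-2 and Control-2, the sums were 2427 ± 184 CPM and 2477 ± 484 CPM for 3 Whole Egg and 3 Control fish, so that the lower mean of the Whole Egg fish remained but was within the spread between fish.

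The serpin with the most reads was serpina1 (ENSDARG00000090286), the zebrafish counterpart of alpha-1-antitrypsin, which in humans protects tissue from neutrophil elastase. Its level was 499, 285, 938 and 600 CPM in Whole Egg-1 to Whole Egg-4, against 467, 1059, 587 and 780 CPM in Control-1 to Control-4. The values of the diets overlapped, and the highest fish, Control-2, had 3.71 times the level of the lowest, Whole Egg-2. The log2 fold change of Whole Egg over Control was −0.32 (SE 0.40, BH-adjusted p = 0.870 by edgeR), with a 95% interval of −1.21 to 0.58, and with 1 fish left out it ran from −0.63 without Whole Egg-3 to −0.08 without Whole Egg-2 and −0.07 without Control-2. In serpina1l (ENSDARG00000090850), a paralog that lies next to serpina1 in the RefSeq gene order of the assembly GRCz12tu, the levels were 610, 135, 479 and 580 CPM in Whole Egg fish 1 to 4, against 697, 765, 354 and 772 CPM in Control fish 1 to 4. Whole Egg-2 again lay lowest and Control-3 was the next lowest fish (log2 fold change −0.52, SE 0.46, BH-adjusted p = 0.833 by edgeR, and −0.21 without Whole Egg-2). Reads that align equally well to both paralogs were not counted, so the 2 genes may each lack reads from their most similar stretches.

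**Figure D1:**
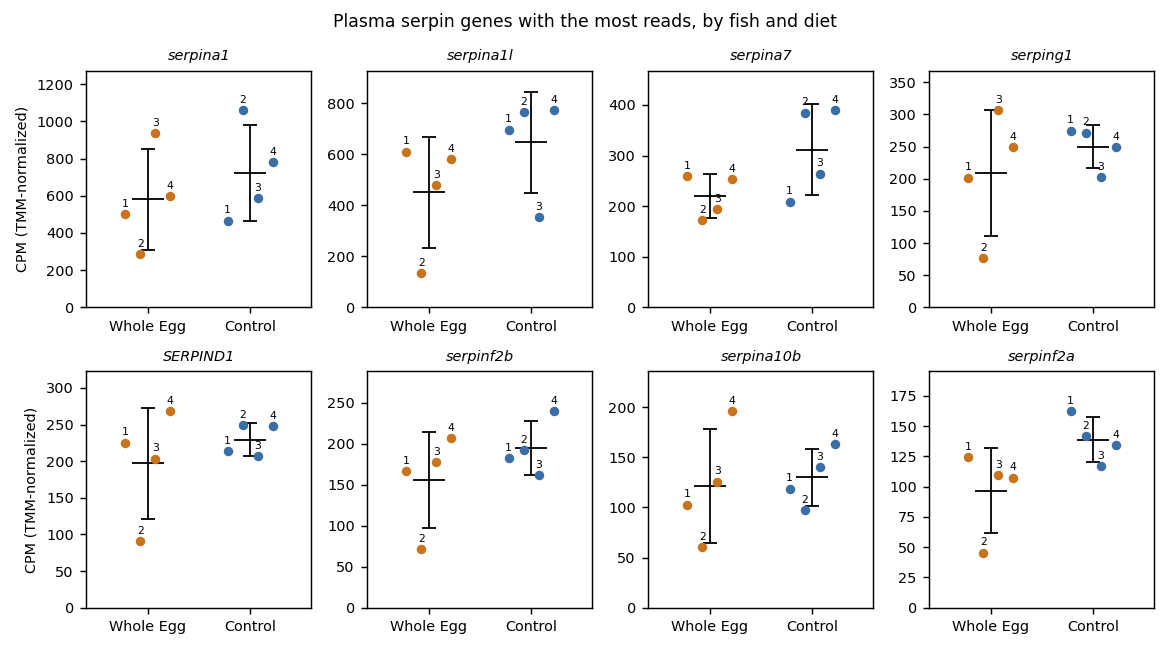
TMM-normalized CPM of the 8 serpin genes with the most reads, 1 panel per gene with its own axis from 0, with Whole Egg fish (orange, left) and Control fish (blue, right), each point 1 fish with its number, and bars for the mean ± SD of 4 fish. The diets overlap in all 8 panels, and Whole Egg-2 is the lowest of the 8 fish in each, from 45.6 CPM in serpinf2a to 285 CPM in serpina1.

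The balance of the neighbours varied between fish of 1 diet. The number of serpina1 reads for each serpina1l read was 0.818, 2.12, 1.96 and 1.03 in Whole Egg-1 to Whole Egg-4, against 0.670, 1.38, 1.66 and 1.01 in Control-1 to Control-4. The means were 1.48 ± 0.650 (SD, n = 4) in Whole Egg fish and 1.18 ± 0.431 in Control fish. Fish 2 and 3 of both diets had between 1.38 and 2.12 serpina1 reads per serpina1l read, and fish 1 and 4 of both diets had at most 1.03. Neither the labels nor the methods say what the numbers stand for, and this split was noticed in the values and not tested. At each number the Whole Egg fish had the higher ratio, which was not tested either, since fish of 1 number are different animals. Together both genes made up 43.6 to 56.9% of the serpin reads of a fish.

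**Figure D2:**
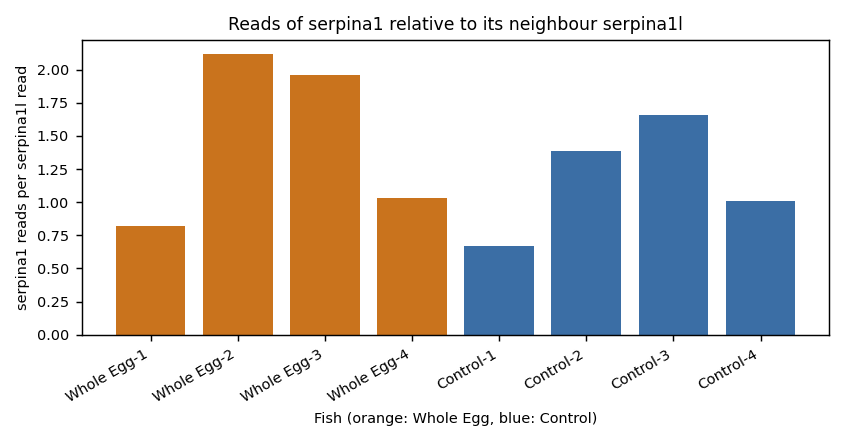
Number of serpina1 reads per serpina1l read (linear axis from 0) in each of the 8 fish, Whole Egg in orange and Control in blue. The ratio is between 0.670 and 1.03 in fish 1 and 4 of both diets and between 1.38 and 2.12 in fish 2 and 3.

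Serpina7 (ENSDARG00000087143) is named after mammalian thyroxine-binding globulin, a serpin that carries thyroid hormone in blood and inhibits no protease. It was measured at 259, 172, 194 and 254 CPM in Whole Egg fish 1 to 4, against 209, 385, 264 and 389 CPM in Control fish 1 to 4. Of the 4 Control fish, 3 lay above every Whole Egg fish and Control-1 lay among them, and the log2 fold change of −0.51 (SE 0.28, interval −1.13 to 0.12) had an unadjusted p of 0.101 and, in edgeR, a BH-adjusted p of 0.810. Without Whole Egg-2 the log2 fold change was −0.40.

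Among the serpins that restrain clotting, SERPIND1 (ENSDARG00000021208), heparin cofactor II, an inhibitor of thrombin, had the smallest spread of the whole family, with a CV of 25.6% over the 8 fish. Its levels were 225, 90.7, 203 and 269 CPM in Whole Egg-1 to Whole Egg-4, against 213, 249, 207 and 248 CPM in Control-1 to Control-4. Apart from Whole Egg-2 all fish lay between 203 and 269 CPM, and the log2 fold change was −0.22 (SE 0.32, BH-adjusted p = 0.886 by edgeR), or 0.02 without Whole Egg-2. Serpina10b (ENSDARG00000036968) and serpina10a (ENSDARG00000005924) are named after the protein Z-dependent inhibitor of coagulation factor X. For serpina10b, the levels were 103, 60.6, 126 and 196 CPM in Whole Egg fish 1 to 4, against 119, 97.0, 140 and 163 CPM in Control fish 1 to 4. Both its lowest and its highest value were in Whole Egg fish (log2 fold change −0.10, SE 0.35, BH-adjusted p = 0.950 by edgeR), and the sign of the change turned to 0.12 without Whole Egg-2. Serpina10a was measured at 3.63 to 7.96 CPM in Whole Egg fish and 4.83 to 7.49 CPM in Control fish (log2 fold change −0.08, and 0.09 without Whole Egg-2). For serpina10a the count without regard to strand was 74.7% of the count on the library's strand, whereas it was 100.1 to 100.3% for the 8 serpins with the most reads.

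Protein Z is the cofactor of this inhibitor, and its gene was the member of the list of partners with the smallest p. The level of PROZ (ENSDARG00000076900) was 9.24, 7.64, 7.58 and 11.6 CPM in Whole Egg fish 1 to 4, against 22.5, 16.1, 16.3 and 17.05 CPM in Control fish 1 to 4, with a log2 fold change of −0.997 (SE 0.22, edgeR unadjusted p = 0.00152, BH-adjusted p = 0.810). Every Whole Egg fish lay below every Control fish, whereas the diets overlapped in serpina10a and serpina10b, and the difference in response between PROZ and them was not tested. Of all 13379 genes tested, 1.13% had every Whole Egg fish below every Control fish.

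Serpinf2a and serpinf2b are paralogs named after alpha-2-antiplasmin, the inhibitor of the clot-dissolving protease plasmin. In serpinf2a (ENSDARG00000076448) the levels were 125, 45.6, 110 and 107 CPM in Whole Egg-1 to Whole Egg-4, against 163, 142, 117 and 134 CPM in Control-1 to Control-4. All Control fish but Control-3 lay above every Whole Egg fish, and the log2 fold change of −0.52 (SE 0.31, interval −1.23 to 0.19, BH-adjusted p = 0.810 by edgeR) was −0.28 without Whole Egg-2. In serpinf2b (ENSDARG00000061383) they were 166, 71.5, 178 and 207 CPM in Whole Egg fish 1 to 4, against 183, 192, 162 and 240 CPM in Control fish 1 to 4, and the diets overlapped (log2 fold change −0.32, SE 0.33, BH-adjusted p = 0.843 by edgeR, and −0.08 without Whole Egg-2). The related serpinf1 (ENSDARG00000069048), pigment epithelium-derived factor, which does not inhibit proteases and is the next protein-coding gene after serpinf2a in the RefSeq order, was measured at 1.17 to 3.50 CPM in Whole Egg fish and 1.71 to 3.68 CPM in Control fish (log2 fold change −0.28, and −0.06 without Whole Egg-2). Serping1 (ENSDARG00000058053), the C1 inhibitor of complement and of the contact system, was measured at 202, 76.8, 306 and 249 CPM in Whole Egg fish 1 to 4, against 275, 272, 202 and 249 CPM in Control fish 1 to 4. Its highest and its lowest fish were both on the Whole Egg diet (log2 fold change −0.26, SE 0.38, BH-adjusted p = 0.886 by edgeR), and without Whole Egg-2 its log2 fold change was 0.02.

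On the scale of TMM-normalized CPM, Whole Egg-2 was the lowest of the 8 fish in all 10 plasma serpins. It was lowest in 13 of the 17 serpin genes tested, while 26.0% of all genes tested were lowest in this fish. Its TMM factor of 1.72 was the largest, against 0.682 to 1.18 in the other 7 fish. As a share of all gene reads, the serpin sum was still lowest in Whole Egg-2 (0.164%), but not every single serpin was. For serpina7 it had 5879 of 20031071 reads, against 3802 of 23487960 in Control-1. In CPM of the plasma serpins, Whole Egg-2 was lower than the median of the other 7 fish by a log2 value between −0.59 in serpina7 and −2.18 in serpina1l. The hepatocyte list was lowest in the same fish. The summed level of the 10 plasma serpins was 5.86, 6.79, 8.01 and 5.80% of the summed hepatocyte list in Whole Egg-1 to Whole Egg-4, against 6.77, 6.69, 6.30 and 7.87% in Control-1 to Control-4, so that relative to the hepatocyte list Whole Egg-2 lay within the range of the other fish. In bulk liver, fewer hepatocytes and less serpin RNA per hepatocyte cannot be told apart. The part of ovary RNA in the low serpin values of Whole Egg-2 was not tested.

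**Figure D3:**
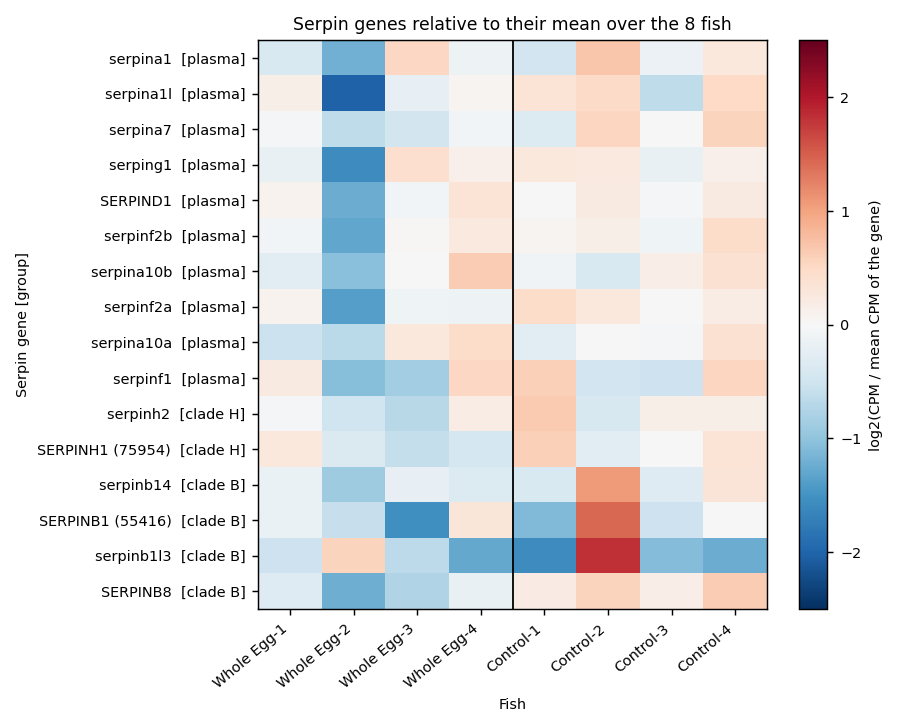
Log2 of the CPM of each fish over the gene's mean CPM of the 8 fish, for 16 of the 17 serpin genes tested (rows, with their group) and the 8 fish (columns, Whole Egg left of the line and Control right). Whole Egg-2 is the lowest fish in 12 rows, among them all 10 plasma serpins, and Control-2 is the highest in 4 rows, 3 of them of clade B.

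Outside plasma, SERPINE2 (ENSDARG00000029353), protease nexin 1, had the widest range of all serpin genes that had a count in every fish. It had 4, 139, 17 and 7 counts in Whole Egg-1 to Whole Egg-4, against 4, 17, 17 and 6 counts in Control-1 to Control-4. The 139 counts of Whole Egg-2 corresponded to 4.07 CPM, against 0.197 to 0.770 CPM in the other 7 fish, whereas most other serpins were lowest in Whole Egg-2. The ovary list was highest in this fish as well, and its part in the SERPINE2 counts was not tested. Because 3 fish reached the level the filter asks for in at least 4, SERPINE2 was not tested with the other genes. Without the filter its log2 fold change was 1.46 (edgeR unadjusted p = 0.104), and without Whole Egg-2 it was −0.15.

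Clade B serpins lack a classical secretion signal and act mostly inside cells, and SERPINB1 is known in mammals as the inhibitor of leukocyte elastase. Of 6 clade B genes, 4 were tested, and 3 of these were highest in Control-2. The gene serpinb1l3 (ENSDARG00000014556) had 21, 74, 23 and 10 counts in Whole Egg-1 to Whole Egg-4, against 9, 115, 22 and 9 counts in Control-1 to Control-4. Control-2 and Whole Egg-2 thus had the most reads of this gene, and its log2 fold change of −0.55 (SE 0.79, BH-adjusted p = 0.886 by edgeR) turned to 0.99 without Control-2 (unadjusted p = 0.0806). Only 56.3% of its reads lay on the library's strand. On the other strand there were 14 to 43 counts in every fish, with the fewest in Control-2, so that it was on the gene's own strand that these fish had the most reads. SERPINB1 (ENSDARG00000055416) was measured at 2.21, 1.67, 0.856 and 3.07 CPM in Whole Egg fish 1 to 4, against 1.15, 6.71, 1.74 and 2.47 CPM in Control fish 1 to 4 (log2 fold change −0.64, SE 0.58, and 0.13 without Control-2). For serpinb14 (ENSDARG00000091801) the levels were 2.31, 1.41, 2.24 and 2.05 CPM in Whole Egg fish 1 to 4, against 1.98, 5.44, 2.06 and 3.23 CPM in Control fish 1 to 4. The values overlapped (log2 fold change −0.67, SE 0.38, edgeR unadjusted p = 0.109, BH-adjusted p = 0.810), and without Control-2 the log2 fold change was −0.26. The summed level of 8 leukocyte genes was 24.8 CPM in Control-2, of which cd74a made up 16.5 CPM, against 16.2 to 34.6 CPM in the other 7 fish. The parts of leukocyte and of intestine RNA in the clade B values of Control-2 were not tested.

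**Figure D4:**
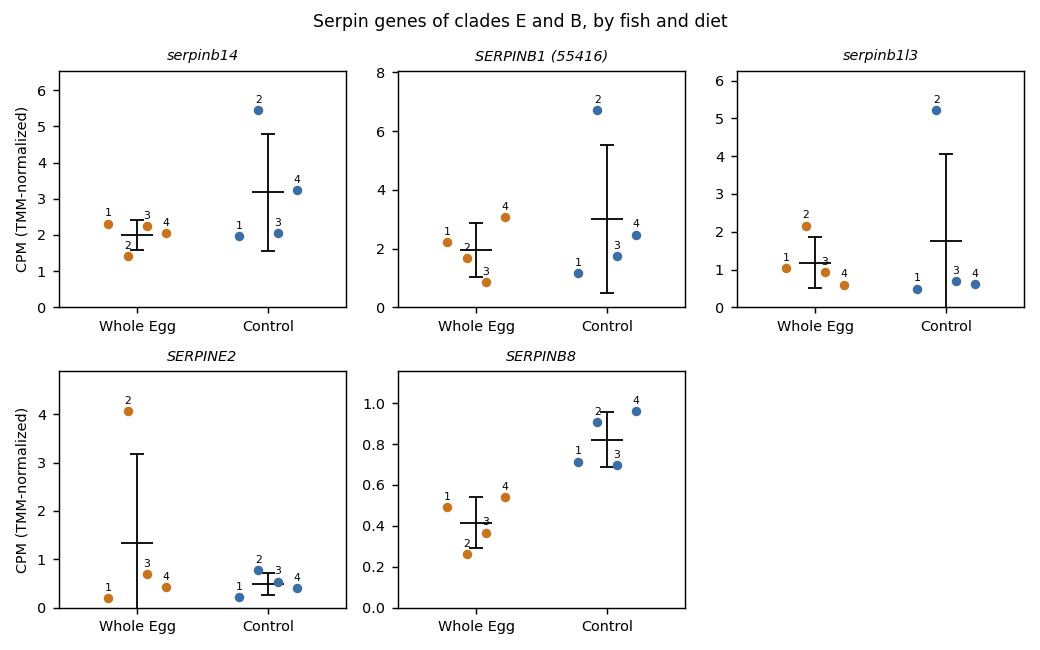
TMM-normalized CPM of 5 serpin genes of clades E and B with 100 or more counts in all, 1 panel per gene with its own axis from 0, with Whole Egg fish (orange, left) and Control fish (blue, right), each point 1 fish with its number, and bars for the mean ± SD of 4 fish, drawn down to 0 at most. Control-2 is the highest fish for serpinb14, SERPINB1 and serpinb1l3, Whole Egg-2 for SERPINE2 (4.07 CPM), and only the SERPINB8 panel shows no overlap between the diets.

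SERPINB8 (ENSDARG00000095830), an intracellular serpin, was the only family member whose diets did not overlap and the only one with an unadjusted p under 0.05. It had few reads, with 10, 9, 9 and 9 counts in Whole Egg-1 to Whole Egg-4, against 13, 20, 22 and 14 counts in Control-1 to Control-4. On the CPM scale it was measured at 0.416 ± 0.126 CPM in Whole Egg fish and 0.820 ± 0.134 CPM in Control fish (SD, n = 4 each), a log2 fold change of −0.99 (SE 0.34, interval −1.75 to −0.23). It did not pass the threshold over all genes (edgeR unadjusted p = 0.0163, BH-adjusted p = 0.810). Of all genes tested, 3.9% had an unadjusted p under 0.05, 1.36% with the Whole Egg diet lower, and 2.14% had diets that did not overlap, and 1 of 17 serpins is no result about the family against this background. With no TMM factors, a setting added after seeing the data, its log2 fold change was −0.61 (unadjusted p = 0.124).

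The clade H serpins are collagen chaperones of the endoplasmic reticulum, known as HSP47 in mammals, and do not inhibit proteases. Serpinh2 (ENSDARG00000036445) was measured at 4.57, 3.34, 2.89 and 5.36 CPM in Whole Egg fish 1 to 4, against 7.42, 3.58, 5.16 and 5.22 CPM in Control fish 1 to 4. The diets overlapped (log2 fold change −0.41, SE 0.30, edgeR unadjusted p = 0.204, BH-adjusted p = 0.814). The symbol SERPINH1 is carried by 2 genes. One of them (ENSDARG00000075954) was measured at 0.652 to 1.18 CPM in Whole Egg fish and 0.816 to 1.48 CPM in Control fish (log2 fold change −0.44, SE 0.33), with 76.1% of its reads on the library's strand. The other (ENSDARG00000019949) had 0 to 4 counts in a Whole Egg fish and 1 to 5 counts in a Control fish. Of 8 collagen genes on the list of clade H clients, none was called by edgeR and none had an unadjusted p under 0.05, and 4 had a log2 fold change below 0 (median −0.01), or 2 without Whole Egg-2 (median 0.08).

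Besides SERPINE2, 4 genes had too few reads for the test. A second gene with the symbol SERPINB1 (ENSDARG00000070396) had 0 to 9 counts in a Whole Egg fish and 1 to 11 counts in a Control fish. SERPINI1 (ENSDARG00000034168), neuroserpin, an inhibitor of tissue plasminogen activator known from the nervous system, had 0 to 7 counts in a Whole Egg fish and 0 to 4 counts in a Control fish. The gene serpinb1l4 (ENSDARG00000096888) had 1 to 4 counts in a Whole Egg fish and 0 to 5 counts in a Control fish. For these 3 genes and the SERPINH1 gene with fewer reads a difference between the diets was not detectable at this depth, and without the filter their edgeR adjusted p lay between 0.718 and 0.990.

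Across the family, edgeR's quasi-likelihood test called 0 of 17 serpin genes at an adjusted p under 0.1, as it called 0 of all 13379 genes tested (0%). An unadjusted p under 0.05 was found for 1 of 17, against 3.9% of all genes tested. DESeq2, the tool of the study, also called 0 serpin genes and left 1 with an unadjusted p under 0.05, where 6.44% of all genes had one. It gave no p for serpinb1l3, so that this gene was not tested there. All 17 log2 fold changes of edgeR were below 0, with a median of −0.41, while 45.8% of all genes tested were below 0 and their median was 0.04. The shift was not particular to serpins. Of the 14 genes of the hepatocyte list, 13 were below 0 (median −0.27, against −0.30 for the 10 plasma serpins). How many serpins were below 0 depended on the scaling and on 2 fish. With no TMM factors, which rescales each fish, 7 of 17 were below 0, against 10.5% of all genes. The median of the serpins was then 0.03, where the median of all genes moved to 0.49, and all 17 serpins remained below that median. Without Whole Egg-2, 13 of 18 serpin genes tested were below 0, against 48% of all genes, and without both Whole Egg-2 and Control-2, 9 of 17 were, against 47.5% of all genes, with a median of −0.08 against 0.02 for all genes.

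**Figure D5:**
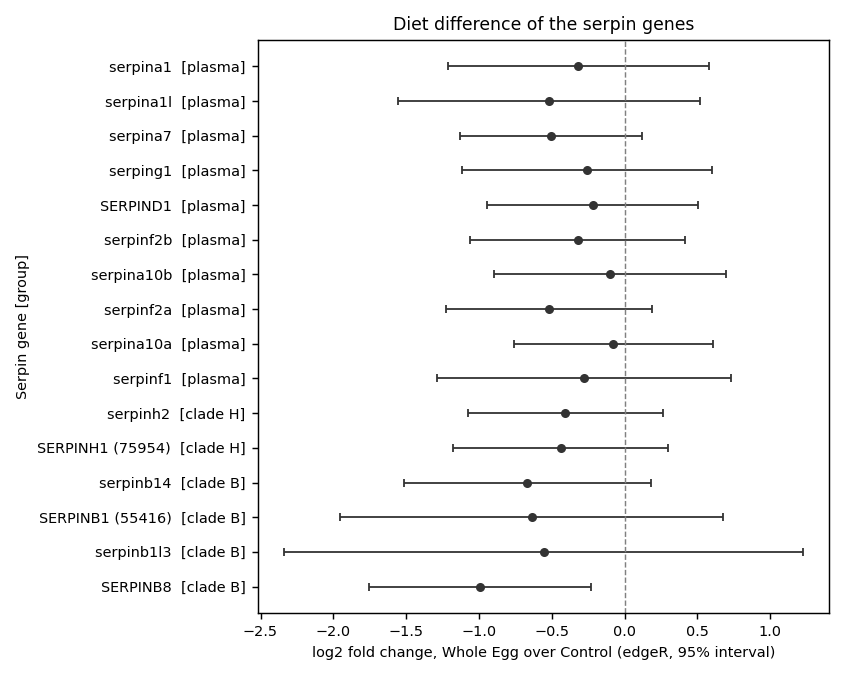
Log2 fold change of Whole Egg over Control from edgeR with its 95% interval (horizontal axis) for 16 of the 17 serpin genes tested (vertical axis, with their group), all 8 fish. All 16 points lie below 0, from −0.99 to −0.08, and every interval but that of SERPINB8 includes 0.

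The 10 plasma serpins showed the same dependence on fish. Their log2 fold changes ran from −0.52 to −0.08 in all 8 fish, with adjusted p of 0.810 to 0.957 (edgeR), and 6 of 10 were below 0 without Whole Egg-2, 10 of 10 without Control-2 and 5 of 10 without both fish (−0.28 to 0.15). Of the clade B genes, 4 of 4 were below 0 without Whole Egg-2 (−1.03 to −0.52), 2 of 4 without Control-2 and 2 of 4 without both fish.

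Plasma serpins act on circulating proteases, most of which are also products of the liver. Of 22 symbols of such proteases, 11 were found, for 13 genes of which 12 were tested. None was called by edgeR and none had an unadjusted p under 0.05, and 11 of 12 had a log2 fold change below 0 (median −0.33), against 45.8% of all genes tested, or 11 of 12 with a median of −0.11 without Whole Egg-2. Their summed level was 966 CPM in Whole Egg-2, the lowest of the 8 fish as for the plasma serpins, and 1959 to 2613 CPM in the other 7 fish. Of 31 symbols of protease inhibitors outside the serpin family, 22 were found and 14 genes were tested, and edgeR called none, with 10 of 14 below 0 (median −0.16), or 8 of 14 without Whole Egg-2 (median −0.0206), and none at an unadjusted p under 0.05. In the list of clotting end products and partners, 5 genes were tested, of which none was called, 5 were below 0 (median −0.40), or 4 without Whole Egg-2 (median −0.14), and 1, PROZ, had an unadjusted p under 0.05, as 3.9% of all genes tested had.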

How the data were processed

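Libraries from rRNA-depleted liver RNA were strand specific, with single-end reads of 75 bases. Per the labels and methods, STAR 2.5.2b aligned the reads to GRCz11 after quality filtering (Trimmomatic 0.36), and the authors deposited raw, not normalized, counts per Ensembl gene for each fish. The analysis took the deposited count on the strand of the library, which held 97.9% of all stranded counts. Totals are given in the report.

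Symbols came from a table that names 29201 of the 32520 genes and writes some in capitals, and case was ignored. With no transcript lengths or sequences at hand, levels were not scaled to length, the rule for named genes took CPM without length, and no sequence is shown. Of another assembly, GRCz12tu, only the order of neighbouring genes was used, and no coordinates are given.

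Counts were analysed with R 4.3.3 and edgeR 4.0.16 (TMM, filterByExpr with a minimum count of 10, quasi-likelihood test, Benjamini-Hochberg adjustment over all genes tested, threshold 0.1), with DESeq2 1.42.0 as an alternative. Each SE was derived as the absolute log2 fold change over the square root of the quasi-likelihood F statistic. The 95% intervals use this SE and the moderated degrees of freedom of edgeR. The fit was tested on simulated data. The values of 1 member are not reported here, though it is counted in the family totals. Named in full were the 8 members with the most reads, the 5 with the smallest p and those whose diets did not overlap. The members and lists were chosen with earlier results of these data known. Each fish is a separate animal, and p-values set the difference between the diets against the spread between these fish. Diets were given by tank, and neither the labels nor the methods name the tank of each sequenced fish. Fish of 1 diet may therefore share a tank, whereas the test treated them as independent. If they do, the p-values may be too small and the intervals too narrow.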

Additional observations from a re-analysis of the deposited data

Results flagged for a closer look

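In 3 of 46 groups of 4 fish (22 serpin genes and their summed share, in each diet), 1 fish stood farther from the others than the 95% limit of Dixon's ratio of gap to range (0.829). Chance flags about 5% of such groups. For SERPINE2 on the Whole Egg diet the ratio was 0.872, from 4.07 CPM in Whole Egg-2 against 0.197 to 0.693 CPM in the other 3 fish of the diet. For serpinb1l3 on the Control diet the ratio was 0.957, from 5.21 CPM in Control-2 against 0.494 to 0.697 CPM in the other 3. For the summed serpin share of reads on the Control diet the ratio was 0.877, from 0.371% in Control-2 against 0.182 to 0.205% in the other 3.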

How the results depend on the processing

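No serpin gene and no other gene was called under any of the 19 alternatives. Among these, an adjusted p under 0.05 in the same edgeR fit could call no gene, since none was called at 0.1. The paper likewise found no differentially expressed gene with all 8 fish or without Control-2 and Whole Egg-2. It did report such genes without Control-4 and Whole Egg-1, which it removed because they overlapped although on different diets. For this it used DESeq2 with a cut on the fold change, excluding genes with fewer than 30 reads. RT-PCR of 3 of these genes in more females and in males showed no difference between the Control and Whole Egg diets. Here Control-4 and Whole Egg-1 were left out only with edgeR and its own filter, so that the paper's analysis was not repeated. The count of serpins with an unadjusted p under 0.05 (1) is given with the share of all genes tested in brackets. It was 0 with no TMM factors (11%), with no filter (5.66%) and with at least 30 counts in every fish (3.22%). The last of these settings tested 13 serpins and left out SERPINB8 for its few reads, so its 0 says nothing about that gene. The count was also 0 without Control-2 and Whole Egg-2 (2.12%), and ranged from 1 to 2 when 1 fish was left out (1.75 to 9.95%). The count whose diets did not overlap (1) was 2 with upper quartile factors (2.36% of all genes) and 0 with at least 30 counts in every fish (2.05%). It was 3 with Control-4 and Whole Egg-1 left out (11.1%). Since the paper picked these 2 fish for overlapping between the diets, the count rises without them by design. The count ranged from 1 to 3 when 1 fish was left out (3.44 to 7.31%). Among the members named in full, signs turned in some settings. With no TMM factors, a setting chosen after seeing the data that moved the median of all genes to 0.49, they turned for serpina1 (0.0053), serping1 (0.0778), SERPIND1 (0.109), serpinf2b (0.0392), serpina10b (0.298) and serpinh2 (0.0492). Without Control-2 and Whole Egg-2 they turned for serpina1 (0.155), serping1 (0.0616), SERPIND1 (0.0638) and serpina10b (0.0098), and without Control-4 and Whole Egg-1 for serpina10b (0.10). Other members turned as well, among them serpina10a in each of these settings (0.34, 0.080 and 0.18 in the same order). With 1 fish left out, values ranged from −0.49 to 0.0224 for serping1, from −0.41 to 0.0208 for SERPIND1 and from −0.44 to 0.12 for serpina10b. Causes were not tested. Fish that share a number are different animals. Their deviations correlated over genes with r of 0.20, 0.35, 0.079 and 0.45 for numbers 1 to 4, and 6 of 8 fish correlated best with their own number. With the number as a block, 0 serpins were called and 1 had an unadjusted p under 0.05, as without it, and 754 of all genes had one, against 522. Depth limits the 4 serpins with 16 to 41 counts over all fish.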

Other observations

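Among protease inhibitors outside the serpin family, named after their values were seen, spint1a, spint1b and spint2, which encode membrane-bound Kunitz inhibitors of epithelial serine proteases, were highest in Whole Egg-2, as SERPINE2 was. The level of spint1b was 0.590, 7.79, 1.43 and 0.663 CPM in Whole Egg-1 to Whole Egg-4, against 0.918 to 1.27 CPM in Control-1 to Control-4. The level of spint1a was 7.46 CPM in Whole Egg-2, against 1.43 to 2.61 CPM in the other 7 fish. For spint2 it was 12.4 CPM in Whole Egg-2, against 2.25 to 5.91 CPM in the other 7 fish. The ovary list was highest in the same fish, and its part in these values was not tested.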
